A study of Homo sapiens with 4 samples.

Results

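Kinesins are the motor proteins that walk along microtubules, and this report describes their transcripts in THP1 cells that received the microRNA miR-511. The members were all non-control probes of a whole genome array whose gene name in the scanner files is that of a kinesin (KIF or KIFC, a number and at most 1 letter A to C), which gave 41 genes with 59 probes among 27193 gene names with 34127 probes. The name decides who is a member, but the family itself was picked by measured values: the fall of a KIF5B probe in the same comparison of mimics, and its disagreement with the second KIF5B probe, were already known. What follows on that comparison is therefore a description without a test of its own. THP1 is a human monoblastic leukaemia cell line. The cells were treated with 30 nM of miR-511-5p mimic or of the negative control #1 mimic, kept in medium with little serum, and harvested on day 2. A mimic is a man-made RNA duplex that stands in for a mature miRNA. Of the 4 arrays, 2 belong to each mimic, and each of 2 independent experiments gave 1 array of either mimic. All values come from 1 cell line, and a bulk measurement cannot tell fewer dividing cells from less RNA per cell.

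A kinesin couples the splitting of ATP to steps along a microtubule. Transport kinesins carry vesicles, mitochondria and RNA granules, usually toward the cell periphery: the kinesin-1 heavy chains KIF5A, KIF5B and KIF5C, the kinesin-2 chains KIF3A, KIF3B and KIF3C, and the kinesin-3 family with KIF1B, KIF13B and KIF16B. Mitotic kinesins build and move the spindle and close the cleavage furrow. KIF11 slides spindle poles apart, KIF2C takes microtubule ends apart, KIF18A dampens chromosome oscillations, and KIF20A and KIF23 act at the central spindle. Their transcripts are typical of dividing cells. By these roles 13 genes (19 probes) were placed among the mitotic kinesins, 17 genes (26 probes) among the transport kinesins, and 11 genes (14 probes), including KIF2A, KIF9 and the ciliary KIF7 and KIF19, among the others.

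The sequences that the comparison of mimics turns on are those of the miRNA and of the 2 KIF5B probes. The mature miRNA is shown as in RefSeq (GRCh38.p14, chr10:17845122-17845142, plus strand), with the seed, bases 2 to 8, in capitals. A transcript that carries the complement of the seed is a possible target, since the seed is the part of a miRNA that pairs first. Both KIF5B probes lie on the minus strand of chromosome 10 of hg19, the build of the scanner files, 8020 bases apart. Probe A_33_P3292337 (chr10:32306080-32306139) is printed whole. Of probe A_33_P3292332 (chr10:32298000-32298059), which lies farther in the direction of transcription, a window of 30 bases is printed, with the letters that pair with bases 1 to 7 of the miRNA in capitals. Which exon or untranslated region a probe lies in was not analysed here.
hsa-miR-511-5p: gUGUCUUUugcucugcaguca
KIF5B A_33_P3292337: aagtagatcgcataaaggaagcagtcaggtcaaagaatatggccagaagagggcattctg
KIF5B A_33_P3292332: cttggtttgggAAGACACcgtttaatttta

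The letters AAAGACA, which pair with bases 2 to 8, were in 0 of the 59 kinesin probes and in 0.970% of all 34127 probes, searched on the strand of the probe. AAGACA, which pairs with bases 2 to 7, was in 3 kinesin probes, those of KIF24, 1 of the 3 of KIF6, and KIF5B A_33_P3292332, against 2.83% of all probes. AAGACAC was in A_33_P3292332 of KIF5B among the kinesins and in 0.592% of all probes. The KIF5B probe with the match was the one whose signal did not fall, and the one that fell holds none of these letters. A probe covers only 60 bases, so this says nothing of the rest of a transcript.

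Most kinesins gave a signal in these cells. On an array, a probe counted as detected when the scanner software marked more than 50% of its spots as well above background. Of the 41 kinesin genes, 30 (73.2%) had a probe well above background on all 4 arrays, 2 on 1 to 3 arrays and 9 on none, where 63.2% of all gene names had such a probe. Among the mitotic kinesins this held for 12 of 13 genes, the exception being KIF2B, printed 10 times on the array and between 1.57 and 1.73 on the log2 scale on the 4 arrays. Among the transport kinesins it held for 13 of 17: KIF1A, KIF5A, KIF5C, which are known mainly from neurons, and KIF13A never reached the mark on any array. Among the others it held for 5 of 11, while KIF12, KIF25, KIF26A and KIF6 were below on all 4 arrays, KIF19 was detected on 3 arrays and KIF27 on 1. Between 43 and 47 of the 59 kinesin probes were well above background on an array, the lowest number being that of the miR-511 mimic of experiment 1, which also had the fewest detected probes overall (64.8%, against 66.6% to 69.3% on the other arrays). Of 8 monocytic and leukaemic marker genes on the array, 7 were well above background on all 4 arrays, among them SPI1, CD33, MPO and CSF1R, and MEIS1 on 2. Of the markers of other cells given here, MS4A1, EPCAM, COL1A1 and ALB were below background throughout, but CD3E was above it on 3 arrays. Its part in the results was not tested.

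KIF5B, the heavy chain of the ubiquitous kinesin-1 motor, had the largest change of the family, and only at 1 of its 2 probes. With probe A_33_P3292337 the normalized log2 intensity was 7.62 with miR-511 mimic and 9.41 with control mimic in experiment 1, and 8.16 and 9.24 in experiment 2. Both miR-511 arrays were below both control arrays, with log2 differences of -1.78 and -1.07, which is 3.44-fold and 2.11-fold lower. The group values were 7.89 ± 0.38 and 9.32 ± 0.12 (SD, n = 2), and the log2 fold change (log2FC, miR-511 mimic minus control mimic) was -1.43 with a standard error (SE) of 0.22. With probe A_33_P3292332 the values were 13.04 and 12.95 in experiment 1 and 13.005 and 12.94 in experiment 2. Its miR-511 arrays were also apart from its control arrays, but above them and by far less: the log2FC was 0.08 (SE 0.09). The 2 probes thus moved in opposite directions in both experiments, and their log2FC differed by 1.51. All 8 measurements were well above background and no kinesin spot was saturated. A level at 1 probe cannot be set against that at another, because each binds its own target with its own efficiency.

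**Figure D1:**
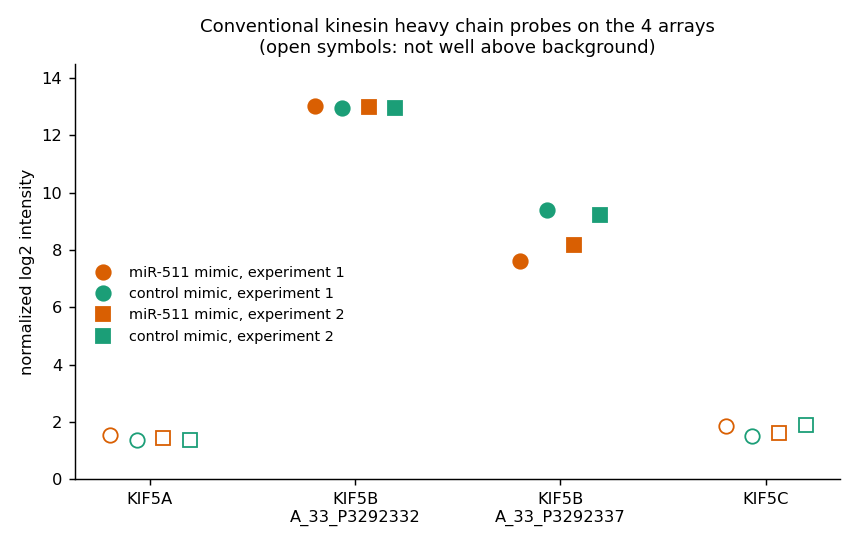
Normalized log2 intensity of the 4 kinesin-1 heavy chain probes on each array, with miR-511 mimic in orange, control mimic in green, experiment 1 as circles and experiment 2 as squares; open symbols were not well above background. KIF5B A_33_P3292337 lies at 7.62 and 8.16 with miR-511 mimic and at 9.41 and 9.24 with control mimic, whereas A_33_P3292332 lies between 12.94 and 13.04 on all 4 arrays; heights of different probes are not comparable.

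The other heavy chains of kinesin-1 gave no usable signal. KIF5A lay between 1.38 and 1.54 and KIF5C between 1.52 and 1.91 on the log2 scale over the 4 arrays, all below the detection mark, so that no change can be read from them. The light chains, which link KIF5 proteins to their cargo, were measured: KLC1 had a log2FC of -0.17 (SE 0.14), KLC2 of -0.01 (SE 0.10) and KLC4 of 0.15 (SE 0.09), none past the threshold described next. KLC3 was at 3.92 and 3.82 with miR-511 mimic and at 3.04 and 3.54 with control mimic, and the control array of experiment 1, the lowest, was not well above background. KLC3 thus entered the test through the miR-511 arrays, where it is high, and the size of its difference is not given.

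Other kinesins with several tested probes can be set beside KIF5B as a description, since the disagreement of its probes was among the values that chose the family. Over the 12 such kinesins the median distance between the highest and the lowest log2FC of a gene was 0.05, and over the 3790 such genes of the array 0.11. The probes had the same sign in 8 of the 12, and in 53.1% of the 3790. KIF1B is outside the 8 only through its dimmest probe, which was below the detection mark on the miR-511 array of experiment 1. The dimmer KIF21B probe was below it there too, so nothing is read from this count. KIFC2, a minus-end directed motor, had a distance of 0.56 and KIF22, which binds chromosome arms, of 0.40 over 3 probes. Of the 4 KIF1B probes, the 3 detected on every array lay between 0.03 and 0.11. At the other end, the 2 probes of KIF4A differed by 0.0041 and those of KIF16B by 0.012.

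KIF22 allows a direct look at the precision of a probe, because 2 of its probes share 50 of their 60 bases (in capitals; hg19 plus strand, A_33_P3350634 at chr16:29815326-29815385 and A_23_P54622, whose listed interval chr16:29815336-29816143 spans an intron).
KIF22 A_33_P3350634: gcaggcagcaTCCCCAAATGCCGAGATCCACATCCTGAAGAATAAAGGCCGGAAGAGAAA
KIF22 A_23_P54622: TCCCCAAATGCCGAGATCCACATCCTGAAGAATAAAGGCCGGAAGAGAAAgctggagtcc

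These overlapping probes had log2FC of 0.08 (SE 0.11) and 0.14 (SE 0.11). The SE describes the scatter between arrays, which both probes share, and not the error of a probe. On the same arrays the probes gave differences of 0.07 and 0.26 in experiment 1, and of 0.08 and 0.03 in experiment 2. The third KIF22 probe (chr16:29810045-29810104) had -0.26 (SE 0.13), lower with miR-511 mimic in both experiments, at 7.46 against 7.64 and 7.55 against 7.88.

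**Figure D2:**
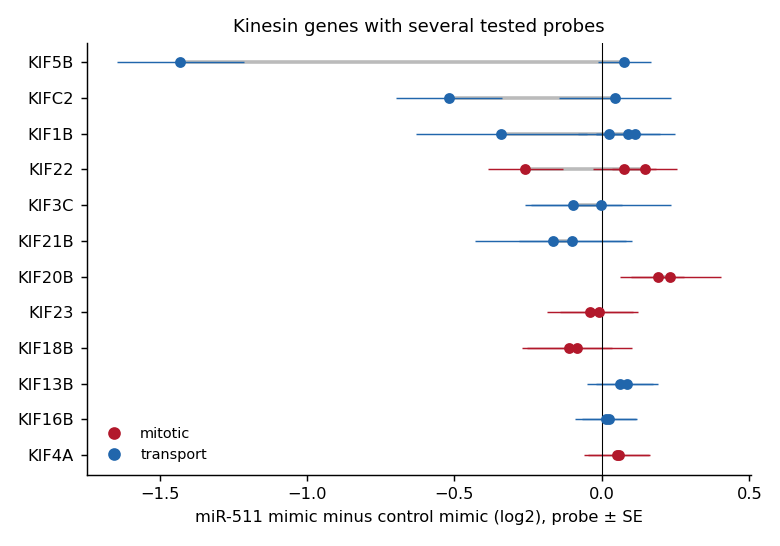
Log2FC of each tested probe of the 12 kinesin genes with more than 1, in rows ordered by the distance between their probes; points are probes, horizontal lines their SE and grey bars the distance. The bar of KIF5B reaches from -1.43 to 0.08, and 8 of the 12 genes have all their probes on the same side of 0. The lowest probes of KIF1B and KIF21B were not well above background on 1 array, and KIF1B is outside the 8 only through that probe.

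The threshold used here, an unadjusted p below 0.05 in limma's moderated test, is 1 of the 2 conditions of the study, which also asked for a significant change over identical replicate probes. It was passed by 3 of the 46 kinesin probes tested, against 2.20% of the 22638 tested probes of the array. All 3 were lower with miR-511 mimic, against 0.932% of the tested probes lower past the threshold. They were KIF5B A_33_P3292337, KIF9 and 1 of the 2 KIFC2 probes, and since the family was chosen with the KIF5B value known, nothing is read from these shares. No kinesin probe passed Benjamini-Hochberg adjustment, nor did any probe of the array (0%; smallest adjusted p of limma 0.790). KIF9, a motor of motile cilia, had values of 5.30 with miR-511 mimic and 5.53 with control mimic in experiment 1, and 5.26 and 5.79 in experiment 2. Its groups did not overlap, and the log2FC was -0.38 (SE 0.13). KIFC2, at its probe A_33_P3414683, had 4.70 and 5.38 in experiment 1 and 5.14 and 5.50 in experiment 2, again without overlap, with a log2FC of -0.52 (SE 0.18). The second KIFC2 probe did not share this, with 8.60 and 8.43, then 8.16 and 8.25, and a log2FC of 0.04 (SE 0.19). For a probe taken by itself, exact permutation of 4 arrays in 2 groups gives no two-sided p below 0.333.

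The count of 3 depended on the processing. After normexp background correction or with an intensity trend in the variance, KIF5B A_33_P3292337 was the only kinesin probe past the threshold. The share of all tested probes past the threshold moved too: it was 1.17% after normexp and 1.26% with the trend. The count also changed with 1 array left out, but it is not given for those fits, where 1 mimic has a single array. Without the miR-511 array of experiment 2, probes of KIF19, KIF1B and KIF21B entered through the control arrays alone. After normexp the log2FC of KIF9 shrank to -0.11 and that of KIFC2 A_33_P3414683 to -0.14, so that neither was called. KIF9 had -0.25 without the control array of experiment 2, and KIFC2 had -0.30 without the miR-511 array of experiment 1. The value of KIF5B is the one that chose the family, so its own place under these settings is no support for it.

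Mitotic kinesins had small differences between the mimics. With 1 probe per gene, the tested probe with the highest mean, the median log2FC of the 12 tested genes was 0.09, and 0.01 over all tested probes of the array. The mitotic median was -0.02 without the control array of experiment 1 and -0.01 without the miR-511 array of experiment 2. Without the control array of experiment 2 it was 0.15. Such a fit leaves 1 mimic with a single experiment, so the difference between experiments enters it. With all 4 arrays the median was 0.10 within experiment 1 and 0.04 within experiment 2. None of the 18 tested mitotic probes passed the threshold, which is near the 2.20% of the array and no result about the class. Of the 12 genes, 7 were higher with miR-511 mimic in both experiments, 1 was lower in both and 4 changed direction. KIF11, the target of classical antimitotic compounds, had 11.59 against 11.53 in experiment 1 and 11.86 against 11.72 in experiment 2 (log2FC 0.10, SE 0.15). KIF20A, measured with 10 spots per array of which 9 or 10 were used, had 10.61 against 10.495 and 10.71 against 10.64 (log2FC 0.09, SE 0.11). The SD among its single spots on an array was 0.07 to 0.12, which describes the scatter of spots and not that between cultures. With the outlier spots kept, the log2FC of KIF20A was 0.01, and with 1 array left out it lay between 0.02 and 0.17. KIF2C had 13.99 against 13.95 and 14.17 against 14.16 (log2FC 0.03, SE 0.13), and KIF18A 8.76 against 8.65 and 8.97 against 8.92 (log2FC 0.08, SE 0.15). Leaving out the control array of experiment 1 or the miR-511 array of experiment 2 turned the sign of KIF11, KIF2C and KIF18A. The direction was not the same in the experiments for KIF23, which is needed for cytokinesis (log2FC -0.01, SE 0.13), and for KIFC1, which clusters centrosomes (log2FC -0.11, SE 0.19; 0.12 in experiment 1 and -0.35 in experiment 2). The highest values among probes detected on all 4 arrays and higher with miR-511 mimic in both experiments were those of KIF20B (A_23_P75071, 0.19, SE 0.09), KIF15 (0.15, SE 0.10) and KIF22 (A_23_P54622, 0.14, SE 0.11), all mitotic and all short of the threshold in limma. With 1 array left out, KIF22 A_23_P54622 lay between 0.05 (without the control array of experiment 1) and 0.24 (without that of experiment 2), and KIF15 between 0.08 (without the miR-511 array of experiment 1) and 0.21 (without that of experiment 2). The brighter KIF20B probe, A_33_P3215239, which stands for the gene, changed direction, with -0.03 in experiment 1 and 0.50 in experiment 2. In a test of each probe with its own variance, without limma's moderation, 3.13% of all tested probes passed the unadjusted threshold. KIF20B A_23_P75071 and KIF5B A_33_P3292337 were the kinesins among them, and KIF9 and KIFC2 were not.

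Transport kinesins stayed closer still to 0 at the probe that stands for the gene. The median log2FC of the 13 tested genes was 0.03, with a range of -0.10 to 0.09. Without the miR-511 array of experiment 2 this median was -0.01. KIF5B is represented there by A_33_P3292332. Of these genes 3 were higher and 2 lower in both experiments, and 8 changed direction. KIF1B, which carries mitochondria and synaptic vesicle precursors, had 9.003 against 8.91 and 8.87 against 8.79 (log2FC 0.09, SE 0.11). KIF3A and KIF3B, partners in the motor of intraflagellar transport, had log2FC of 0.03 (SE 0.12) and -0.02 (SE 0.09). The endosomal KIF16B had 0.03 (SE 0.09), and KIF21B, which limits microtubule growth, -0.10 (SE 0.18). With 1 array left out KIF1B lay between 0.02 and 0.15, KIF3A between -0.08 and 0.13 and KIF3B between -0.05 and 0.01. KIF16B lay between -0.01 and 0.06 and KIF21B between -0.28 and 0.08. Except for KIF1B the sign thus turned in some of these fits, which the difference between experiments also enters. Within the experiments KIF21B was lower with miR-511 mimic in both (-0.05 and -0.15), whereas KIF3A, KIF3B and KIF16B changed direction. KIF13A, also on the list of genes to be shown, was below background on every array, at 1.58, 1.18, 2.63 and 2.40.

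The medians of mitotic and transport kinesins were close. That of the mitotic genes exceeded the one of the transport genes by 0.06, by 0.04 in experiment 1 and 0.06 in experiment 2. The SE of a single probe ran from 0.09 to 0.35 in these classes. It comes from a fit without a term for the experiment, so it includes the difference between experiments. It is not the error of a difference of medians, which was not estimated. Leaving out 1 array moved the difference of medians from -0.03 (without the control array of experiment 1) to 0.11 (without the control array of experiment 2). The difference between experiments enters these fits too, and within each experiment the sign was the same. The largest scatter was in the other kinesins: KIF24 had a log2FC of -0.42 (SE 0.48) and KIF7 of 0.29 (SE 0.38), both with opposite signs in the experiments. KIF24, a regulator of cilium formation, was at 6.72 on the miR-511 array of experiment 1 and at 7.64 to 8.03 on the others. The same array was lowest for the tested KIF19 probe (2.30 against 3.52 to 3.84), for the dimmest KIF1B probe (4.18 against 4.87 to 4.97) and for the dimmer KIF21B probe (3.55 against 4.04 to 4.27), and except for KIF24 these probes fell below the detection mark there and on no other array. They entered the test through the control arrays, where they are higher, so the size of their difference is not given.

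**Figure D3:**
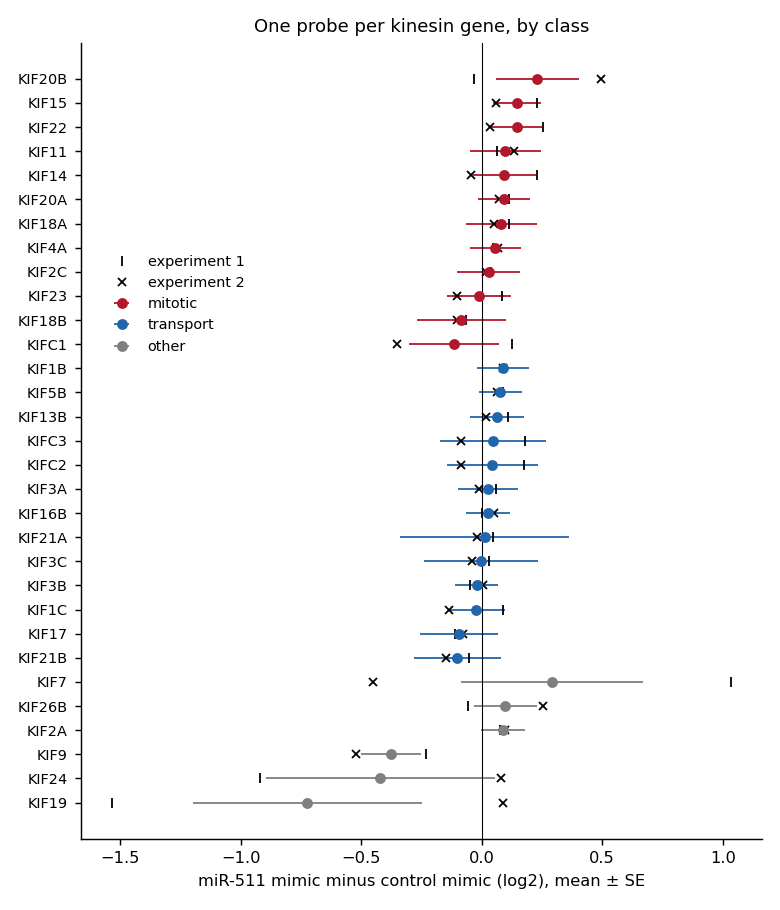
Log2FC with SE for the 31 kinesin genes with a tested probe, at the brightest tested probe, in blocks of mitotic, transport and other kinesins; bars mark experiment 1 and crosses experiment 2. The mitotic and transport genes shown lie between -0.11 and 0.23, KIF24 and KIF7 have their experiments on opposite sides of 0, and the point of KIF19 includes an array on which it was not well above background.

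Across the 46 tested kinesin probes, the differences of the 2 experiments had a Pearson correlation of 0.28 and a Spearman correlation of -0.01. Without KIF5B A_33_P3292337 the Pearson correlation over the 45 others was -0.14, so the positive value rests on that probe. These are correlations across probes, which share arrays and are not independent. The sign agreed between experiments for 24 of 46 kinesin probes (52.2%) and for 51.0% of all tested probes.

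**Figure D4:**
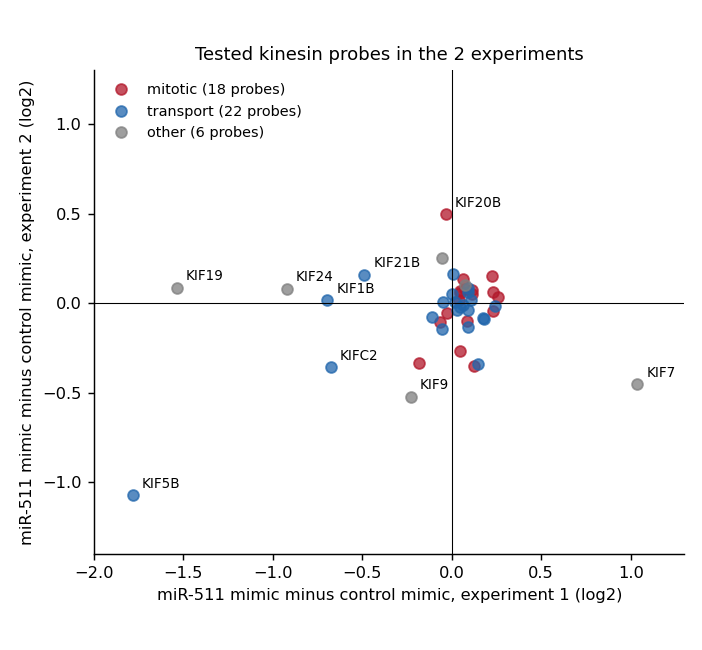
Difference between miR-511 and control mimic (log2) in experiment 1 on the horizontal and experiment 2 on the vertical axis for the 46 tested kinesin probes, coloured by class. KIF5B A_33_P3292337 lies alone at -1.78 and -1.07, and the remaining 45 probes show no common direction.

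Partners and regulators of the motors had a median close to that of the array. Of 32 genes on the array for light chains, cargo adaptors, dynein and dynactin subunits and central spindle proteins, 30 were tested. Past the unadjusted threshold there was 1, KLC3, which met the detection filter only through the group where it is high, and no gene was lower past it. A share of 1 in 30 is near the 2.20% of all tested probes and says nothing particular of these genes. Their median log2FC was 0.03, against 0.01 over all tested probes. CENPE, a kinesin of the kinetochore that does not carry a KIF name, had a log2FC of 0.07 (SE 0.10). Of 14 genes of the mitotic programme, among them CCNB1, CDK1, PLK1 and TOP2A, none passed in either direction, which at 2.20% of all tested probes is no result about them. Their median was 0.04, with CENPF lowest at -0.21 (SE 0.13) and MKI67 highest at 0.20 (SE 0.14).

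Kinesin probes differed more between the experiments than between the mimics, with a median size of 0.16 against 0.09 on the log2 scale over the 46 tested probes. The same held over all tested probes of the array, at 0.12 against 0.08. This contrast, experiment 2 minus experiment 1 with 2 arrays each, played no part in choosing the family and was added after the data had been seen. In limma, 10 of 46 kinesin probes had an unadjusted p below 0.05 (8 higher and 2 lower in experiment 2), against 13.6% of the 22638 tested probes, and none passed adjustment (0% of all probes). With the treatment as a further term 6 passed, but the share of all tested probes is not given for that fit, so nothing is read from it. The count also changed with 1 array left out, but is not given there, since 1 experiment then has a single array. In 34 of 46 probes the difference between experiments was larger in size than that between treatments, against 62.0% of all tested probes.

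KIF21A, a motor that is anchored at the cell cortex, had the largest of these differences past the threshold. It was at 4.02 with miR-511 mimic and 3.98 with control mimic in experiment 1, and at 4.68 and 4.70 in experiment 2. The experiments did not overlap and the treatments were almost equal within each of them. With 10 spots per array, whose SD was 0.18 to 0.26, the log2 difference between experiments was 0.69 (SE 0.07, adjusted p = 0.215 in limma). KIF3C, a kinesin-2 chain, went the other way at probe A_33_P3369153, with 6.88 and 6.85 in experiment 1 and 6.39 and 6.43 in experiment 2 (difference -0.45, SE 0.07, adjusted p = 0.226 in limma). Of the 18 tested mitotic probes 4 were past the unadjusted threshold, against 13.6% of all tested probes. KIF18A, KIF18B, KIF23 and KIF2C each had 1 of them, all higher in experiment 2, by 0.19 to 0.33. Which of these pass with the treatment as a further term is not given here.

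Of the 12 mitotic kinesin genes, 10 were higher in experiment 2, where 47.6% of all tested probes were higher, and the median difference was 0.16, at 0.11 with miR-511 mimic and 0.20 with control mimic. Of the 13 transport genes, 6 were higher and 7 lower, with a median of -0.03. Over all tested probes the median was -0.01. In the list of mitotic genes beside them, 13 of 14 were higher in experiment 2, with a median of 0.16, although none passed the threshold. Of the 7 tested monocytic and leukaemic markers, 1 was higher in experiment 2, and the median was -0.14. PTPRC (-0.30, SE 0.11) and CSF1R (-0.25, SE 0.08) were lower past the unadjusted threshold, which 13.6% of all tested probes passed in either direction. The other markers did not pass it. The growth state of the cultures was not measured here.

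**Figure D5:**
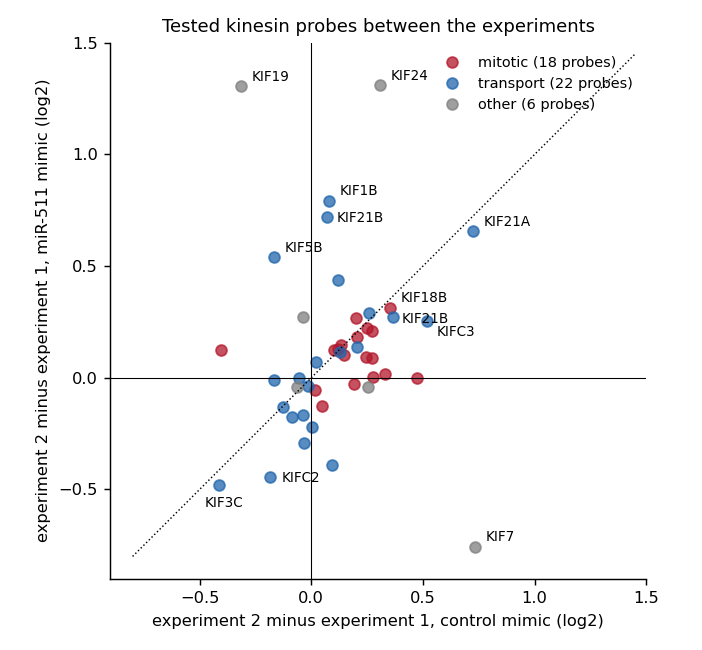
Experiment 2 minus experiment 1 (log2) with control mimic on the horizontal and with miR-511 mimic on the vertical axis for the 46 tested kinesin probes; the dotted line marks equal differences. KIF21A and KIF3C lie near the line at opposite ends, and the tested KIF19 probe, KIF24, KIF5B A_33_P3292337 and the dimmest KIF1B and KIF21B probes stand above it.

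The mitotic kinesins also share letters in their promoters, which the choice of members did not use. CCAAT, the core that the factor NF-Y binds, and TTTGAA, the core of the CHR element known from cell cycle genes, were searched on both strands of the RefSeq promoter windows (GRCh38.p14, 250 bases before to 50 after the start). All 41 kinesin symbols are in RefSeq, and windows were at hand for 13 mitotic, 12 transport and 8 other kinesin genes, counting a gene when any of its windows holds the letters. CCAAT was present for 10 of 13 mitotic and 4 of 12 transport genes, and for 39.7% of the 27305 genes of the table. TTTGAA was present for 9 of 13 mitotic genes, 1 of 12 transport genes and 18.2% of all genes. Both together were present for 8 of 13 mitotic genes, for KIF5B alone among the transport genes and for 7.26% of all genes. In KIF4A, KIF11, KIF18A and KIF23 both lie within the 70 bases before the start, which are printed here as the mitotic genes with both motifs before the start, with the letters of either motif in capitals (ATTGG and TTCAAA being the same motifs on the opposite strand). These stretches are chrX:70290034-70290103, chr10:92593060-92593129, chr11:28108157-28108226 (minus strand) and chr15:69414279-69414348.
KIF4A: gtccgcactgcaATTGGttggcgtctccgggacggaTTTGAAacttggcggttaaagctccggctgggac
KIF11: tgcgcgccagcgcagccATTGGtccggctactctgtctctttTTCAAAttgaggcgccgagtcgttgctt
KIF18A: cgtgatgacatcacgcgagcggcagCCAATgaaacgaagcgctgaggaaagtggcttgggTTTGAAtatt
KIF23: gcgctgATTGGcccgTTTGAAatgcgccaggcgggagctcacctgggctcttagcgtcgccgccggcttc

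In these 4, the CCAAT motif has its first base at 58, 53, 45 and 64 bases before the start, and the TTTGAA motif at 34, 28, 10 and 55. In the other mitotic genes with both, KIF14, KIF18B, KIF20B and KIFC1, the TTTGAA motif lies after the start, so that CCAAT precedes TTTGAA in all 8 windows. A match is a description of these letters and was not tested for binding.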

How the data were processed

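Total RNA of 4 THP1 cultures, 2 per mimic, was hybridized to single-dye Agilent arrays. Per the labels, intensities were extracted with Agilent Feature Extraction 10.5.1.1, while the settings block of the files names 10.7.3.1. The deposited processed intensity of a spot is background-subtracted, with arrays left on their own scales. A table of log2 values, quantile normalized by the authors, served as an alternative.

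With R 4.3.3 and limma 3.58.1, log2 values of non-control spots were taken, 232 to 301 outlier spots per array were left out, arrays were quantile normalized as in the study's methods, and spots of a probe were averaged. Tested were probes with a value on all 4 arrays that were well above background with both arrays of either mimic (22638 of 34127; 46 of 59 kinesin probes) with lmFit and eBayes, two-sided, with 4.14 degrees of freedom. The number of arrays limits the precision. The experiment number pairs the arrays, as the labels name the experiments: deviations of arrays of the same experiment correlated at 0.27. All arrays were on 1 slide.

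The members, the classes and lists of genes, and the motifs were chosen with earlier results of these data known. By rule, probes shown with values were those of KIF5A, KIF5B and KIF5C, those past the unadjusted threshold, the 3 largest rises and falls that both experiments shared among probes detected on all arrays, and 12 kinesins typical of their class. Other probes, such as those of KIF7, KIF19, KIF24 and the remaining probes of KIF22, and the genes named in the contrast between experiments, were chosen after their values were seen. Alternatives were 75th percentile scaling, normexp (offset 50), other filters, outlier spots kept, the deposited table, a replicate block, an intensity trend, a plain t-test per probe, other probes and class members, and leaving out each array. The fit was tested on simulated data with known changes. Probe coordinates are those of hg19 in the files, and RefSeq GRCh38.p14 gave names and the sequences of the miRNA and promoters. Some markers of other cell types on the list are not reported here.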

Additional observations from a re-analysis of the deposited data

How the results depend on the processing

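The count of 3 kinesin probes past the unadjusted threshold was 1 after normexp background correction, where 1.17% of all tested probes passed. With an intensity trend it was 1, where 1.26% passed. It also changed when 1 array was left out, but is not given there, since 1 mimic then has a single array. It was 3 with 75th percentile scaling (2.11% of all tested probes passed), outlier spots kept (2.20%), the deposited table (2.16%) and the stricter filter (1.82%). It was also 3 with the experiment number as a replicate block (3.95%) and without the filter (3.02%). Without the filter KIF19 A_24_P233014 took the place of KIFC2. That probe was below background on all 4 arrays and higher with miR-511 mimic in both experiments, so nothing is read from it. The plain t-test gave 2 (KIF5B A_33_P3292337 and KIF20B A_23_P75071), where 3.13% of all tested probes passed. No setting gave a kinesin probe past the adjusted threshold. The log2FC of KIF5B A_33_P3292337 lay between -1.43 and -1.29 over the settings with all arrays and between -1.70 and -1.16 with 1 left out. The other KIF5B probe had 0.10 after normexp and 0.057 to 0.095 with 1 array left out. The mitotic median lay between -0.023 and 0.15, the transport median between -0.01 and 0.04 and their difference between -0.029 and 0.11 with 1 array left out. With the mean over all tested probes of a gene the difference was 0.0903, and the transport median became -0.02, as it did after normexp. Between 28 and 33 kinesin genes were detected under other rules, and 30 to 31 without 1 array. The contrast between experiments, chosen after seeing the data, gave 6 kinesin probes with the treatment as a term and 2 to 10 with 1 array left out. In the paired fit with the replicate block no call among the kinesins changed. Of 176 values of the 16 other named probes under alternatives, 16 changed sign. KIF9 and KIFC2 A_33_P3414683 kept theirs, but normexp took them to -0.11 and -0.14, past the threshold no longer. The cause of these differences was not tested. Below background no size of a change can be read, which limits the 13 kinesin probes that were not tested.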
